A study of Homo sapiens with 12 samples.

Results

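The wild-type libraries of the cell line HG3 were set against the wild-type libraries of the lines JVM3 and MEC1. The members were the 2 HG3 libraries labelled as U1 wild type, of 12 libraries in the series, and they were compared with 2 JVM3 and 2 MEC1 libraries of the same label. All 3 are established human lines labelled as chronic lymphocytic leukaemia, and the series was made to study a mutation of U1, the small nuclear RNA that pairs with the start of introns. No library of mutant U1 was used here. Total RNA was sequenced after ribosomal depletion, in 2 technical replicates per line, so each line stood for itself alone. Whether the wild-type libraries came from parental cells or from cells carrying an introduced U1 gene is stated in none of the sources used.

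Chronic lymphocytic leukaemia is a cancer of mature B cells. Each clone carries its own rearranged immunoglobulin genes, made by joining a V, a D and a J segment for the heavy chain and a V and a J segment for a kappa or lambda light chain. The leukaemic cells usually carry CD5 and CD23 (FCER2) on the surface, often express the receptor ROR1 and the kinase ZAP70, and frequently have lost a region of chromosome band 13q14 that holds DLEU2 and the microRNA genes MIR15A and MIR16-1. Cell lines derived from such leukaemias each keep a different set of these features.

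The 6 libraries held 29880079 to 35864935 reads assigned to genes. Levels are given as CPM, a gene's reads relative to the library's total after scaling for library composition. A gene was called when the contrast of HG3 with the mean of JVM3 and MEC1 had an adjusted p under 0.05 (edgeR's quasi-likelihood test) and when both HG3 libraries were at least 2 times every other library, or at most 1/2 of every other library. Of 19740 genes tested, 1062 were called higher in HG3 (5.38%) and 999 lower (5.06%). The test alone called 6946 higher (35.2%) and 5936 lower (30.1%), together 12882 (65.3%). Counts of list members below are to be read beside these shares. The replicates come from 1 line each, so p-values measure the spread between technical replicates and the differences are those between these lines. In bulk RNA, fewer cells of a type and less RNA per cell cannot be told apart.

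The B cell label was checked against 10 defining genes, and all 10 were at 43.6 CPM or more in every library. MS4A1, which encodes CD20, stood at 1221 and 1216 CPM in the HG3 libraries, 1043 and 1048 in JVM3 and 812 and 848 in MEC1. CD79A, a chain of the B cell receptor, stood at 182 and 172 CPM in HG3, 164 and 157 in JVM3 and 158 and 153 in MEC1. PAX5, the B lineage transcription factor, stood at 207 and 201 CPM in HG3, 224 and 215 in JVM3 and 220 and 209 in MEC1. None of the 10 was called. Markers of other cells were low in HG3, except for the plasma cell set. Its 4 genes summed to 620 and 635 CPM in HG3, mostly JCHAIN, 57.5 and 58.7 in JVM3 and 491 and 515 in MEC1. The 4 defining T cell genes found in the table (CD3D, CD3E, CD3G and CD247) summed to 0.056 and 0 CPM in HG3, 0.327 to 0.423 in JVM3 and 1.16 to 1.64 in MEC1. The 5 myeloid genes summed to 7.52 and 7.71 CPM in HG3, almost all of it CD33, with LYZ at 0, and to 0.514 to 1.93 elsewhere. The 4 natural killer genes summed to 0.391 and 0.463 CPM in HG3 and to 13.4 and 14.2 in MEC1, mostly GNLY. The 4 stromal and epithelial genes summed to 4.17 and 4.43 CPM in HG3, mostly COL1A1, and to 2.36 to 3.49 elsewhere. The 3 erythroid and platelet genes summed to 0.252 and 0.198 CPM in HG3, all of it HBB, and to 0.027 to 0.246 elsewhere. The wider marker lists summed to 30.2 and 31.4 CPM in HG3 for T cells (19 genes in the table), of which ZAP70 made up most, against 32.1 to 48.5 in the other 4 libraries. For monocytes (15 genes) they summed to 17.9 and 19.0 CPM in HG3 against 12.9 to 14.4, with CD33 at 6.46 and 7.05 CPM in HG3 and 0.238 or less elsewhere. S100A8 and S100A9 were also called higher, and AIF1 lower. The part of other cells in the results below was not tested.

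HG3 transcribed other immunoglobulin V segments than JVM3 and MEC1. Its main heavy-chain V segment was IGHV1-2 and its main light-chain V segments were IGLV2-23 and IGLV3-21, both lambda. These are the coding parts of the V exons of those 3 segments in the reference, at most their last 300 bases, from GENCODE release 29 on GRCh38, shown because they were the most abundant V segments in HG3. Which of the light-chain segments belongs to a productive rearrangement was not tested. The stretch shown of IGHV1-2 lies at chr14:105986582-105986881 on the minus strand, IGLV2-23 at chr22:22698114-22698407 and IGLV3-21 at chr22:22712904-22713203, both on the plus strand. Capitals mark the codons for tyrosine, tyrosine and cysteine that close the framework before the third complementarity-determining region. They are germline reference sequence and not the sequence of the clone.
IGHV1-2: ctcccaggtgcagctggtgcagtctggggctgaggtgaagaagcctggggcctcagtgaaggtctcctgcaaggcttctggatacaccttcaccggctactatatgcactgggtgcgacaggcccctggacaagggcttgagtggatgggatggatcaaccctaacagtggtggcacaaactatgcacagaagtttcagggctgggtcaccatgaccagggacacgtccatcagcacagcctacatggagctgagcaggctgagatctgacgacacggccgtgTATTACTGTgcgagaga
IGLV2-23: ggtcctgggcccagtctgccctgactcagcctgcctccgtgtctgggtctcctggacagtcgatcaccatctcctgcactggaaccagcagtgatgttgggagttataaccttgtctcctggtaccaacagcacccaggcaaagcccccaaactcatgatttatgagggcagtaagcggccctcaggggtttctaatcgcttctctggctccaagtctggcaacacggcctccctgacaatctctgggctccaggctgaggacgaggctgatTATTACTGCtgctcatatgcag
IGLV3-21: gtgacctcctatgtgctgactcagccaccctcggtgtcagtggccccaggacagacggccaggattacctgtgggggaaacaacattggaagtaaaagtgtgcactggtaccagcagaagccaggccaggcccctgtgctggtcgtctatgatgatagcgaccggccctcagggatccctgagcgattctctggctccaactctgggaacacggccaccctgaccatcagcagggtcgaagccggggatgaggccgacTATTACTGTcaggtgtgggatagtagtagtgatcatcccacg
The 2 lambda segments were identical at 197 of 285 aligned bases (69.1%), and the longest identical stretch was 14 bases.

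IGHV1-2 stood at 555.3 and 528.1 CPM in the HG3 libraries, at 0 in both JVM3 libraries and at 0 and 0.126 in MEC1. IGLV2-23 stood at 962 and 910 CPM in HG3, at 0 in both JVM3 libraries and at 0 and 0.0315 in MEC1. IGLV3-21 stood at 544 and 462 CPM in HG3, at 0 in JVM3 and at 0.0271 and 0.0631 in MEC1. All 3 were high in both HG3 libraries and at or next to 0 elsewhere. They were picked for their level in HG3, so a p-value for them would add no support and none is given. JVM3 and MEC1 each had other segments. IGHV3-7 stood at 352 and 364 CPM and IGKV1-5 at 531 and 527 in JVM3. IGHV4-59 stood at 147 and 143 CPM and IGKV4-1 at 690 and 694 in MEC1. In HG3 these 4 segments were at 0.280 CPM or less.

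The light-chain constant regions IGKC and IGLC3 followed the same division. IGKC, the only kappa constant region, had no count in either HG3 library, against 89.2 and 91.3 CPM in JVM3 and 94.2 and 88.8 in MEC1, at least 1990-fold lower in HG3 with a floor of 3 counts over both libraries of the line. The lambda constant region IGLC3 stood at 31.3 and 25.1 CPM in HG3 and at 0.106 CPM or less in the other 4 libraries. IGHD, the delta heavy chain, stood at 263 and 244 CPM in HG3, 56.3 and 52.6 in JVM3 and 34.1 and 27.8 in MEC1, 4.68-fold (4.51 to 4.86) above JVM3. IGHM, the mu chain, was the most abundant in every line at 2722 and 2482 CPM in HG3, 1633 and 1574 in JVM3 and 1215 and 1115 in MEC1. HG3 lay above the other lines for IGHM, but by 1.63-fold (1.62 to 1.64) over JVM3, and was not called. The switched chains IGHG1, IGHG3 and IGHA1 were at 19 to 34 CPM in MEC1 and at 0.397 CPM or less in HG3. They were at 0.528 CPM or less in JVM3 too, so their low level was not particular to HG3. IGLL5, counted in the same list, had no count in HG3 and stood at 16.7 and 18.0 CPM in JVM3 and 0.379 and 0.820 in MEC1. Of the 13 tested constant region genes, 5 were called higher (38.5%, against 5.38% of all tested genes) and 3 lower (23.1%, against 5.06%). Neighbouring V genes and the IGLC genes resemble each other, so small values such as the 3.77 and 4.17 CPM of IGHV1-3 in HG3 are uncertain. Fold intervals here and below are exact binomial 95% intervals on summed counts and cover counting error only.

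**Figure D1:**
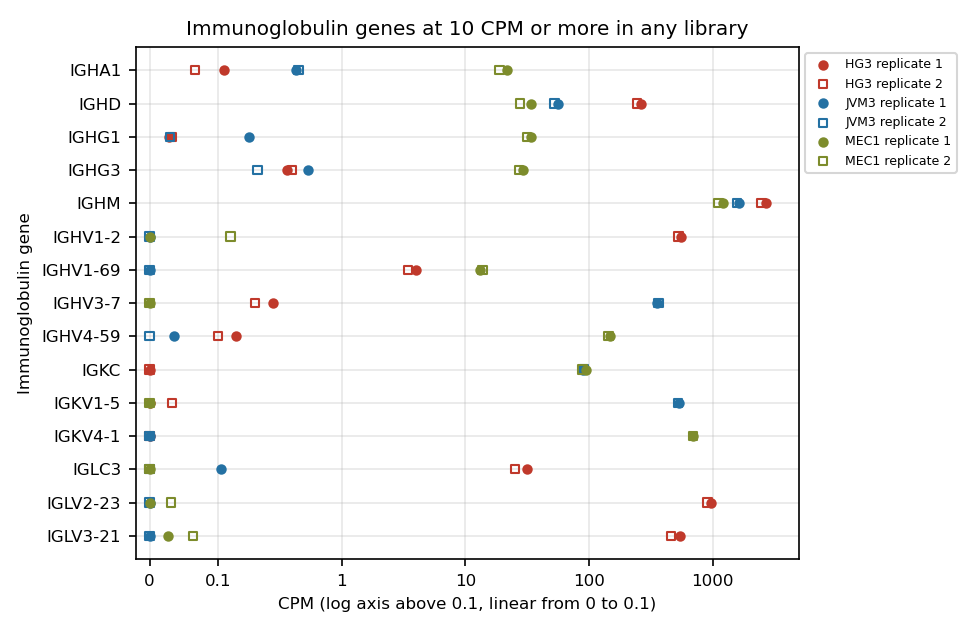
Level of the immunoglobulin genes that reached 10 CPM in any wild-type library, in CPM on an axis that is logarithmic above 0.1 and linear below. Each point is 1 library, filled for replicate 1 and open for replicate 2. HG3 is alone high for IGHV1-2, IGLV2-23, IGLV3-21 and IGLC3, and is at 0 for IGKC.

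The junction table, which has 1 column per line and U1 status, held the J segments as well. On chromosome 14, 8 donors were joined to the acceptor at 106322322 (hg19), and 6 of them had the spacing of the segments IGHJ1 to IGHJ6. Among 11867 reads entering that acceptor in HG3, 89.5% came from IGHJ6 (Wilson 95% interval 89.0 to 90.1%), 2.16% from IGHJ3 and 0.287% from IGHJ4. In JVM3, 88.8% of 3936 reads came from IGHJ4 (87.8 to 89.7%) and 1.45% from IGHJ6. In MEC1, 86.8% of 2689 reads came from IGHJ4 (85.5 to 88.1%) and 3.79% from IGHJ6. HG3 thus joined IGHJ6 where both other lines joined IGHJ4.

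Outside the immunoglobulin genes, the 15 genes that were highest in HG3 by fold stood at 0.221 CPM or less in MEC1 and, except for FBN2, at 0.803 CPM or less in JVM3. GUCY1B1, the beta subunit of soluble guanylate cyclase, the receptor for nitric oxide, stood at 162 and 165 CPM in HG3, at 0 and 0.119 in JVM3 and at 0 in MEC1. Its partner subunit GUCY1A1 and the neighbouring TDO2 were called higher too. FBN2, which encodes the matrix protein fibrillin 2, stood at 142 and 133 CPM in HG3, 6.23 and 6.22 in JVM3 and 0 in MEC1, 22.2-fold (20 to 24.6) above JVM3. GALNT5, an enzyme that starts O-linked sugar chains, stood at 54.6 and 54.8 CPM in HG3, 0.599 and 0.803 in JVM3 and 0 in MEC1. The calling rule itself keeps called genes from overlapping with the other libraries. Among all tested genes, both HG3 libraries lay above the other 4 for 22.3% and below them for 19.5%.

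GRB14, an adaptor that binds the insulin receptor, stood at 22.8 CPM in both HG3 libraries and at 0 in the other 4, at least 471-fold higher. CYP7B1, an oxysterol hydroxylase, stood at 20.4 and 23.3 CPM in HG3 and at 0.0704 CPM or less elsewhere. BRS3, a G protein-coupled receptor of the bombesin family, stood at 13.7 and 12.0 CPM in HG3 and at 0 in the other 4 libraries, at least 267-fold higher. MAT1A, the liver form of the enzyme that makes S-adenosylmethionine, stood at 6.65 and 6.55 CPM in HG3 and at 0 elsewhere, at least 137-fold higher. The other 7 were TMEM100, the pseudogene CCDC144BP and the non-coding FAM30A, MIR4458HG, LINC03020, LINC00305 and PAX8-AS1. They ran from 8.50 to 46.8 CPM in HG3.

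The 15 genes with the largest fall by the same fitted difference, at 5 CPM or more in every other library, were at or next to 0 in HG3. CMPK2, a mitochondrial nucleotide kinase induced by interferon, had no count in HG3 and stood at 50.01 and 49.93 CPM in JVM3 and 29.4 and 31.4 in MEC1, at least 668-fold lower. TBL1X, a subunit of the NCoR corepressor complex encoded on chromosome X, had no count in HG3 and stood at 18.8 and 16.1 CPM in JVM3 and 35.9 and 33.5 in MEC1, at least 382-fold lower. FARP1, a guanine nucleotide exchange factor, stood at 0.0559 and 0.0662 CPM in HG3, 119 and 118 in JVM3 and 108 and 109 in MEC1, a ratio of 1790 (698 to 6560). TES, which encodes the focal adhesion protein testin, stood at 0.0839 and 0.0331 CPM in HG3, 99.1 and 105 in JVM3 and 98.4 and 102 in MEC1, a ratio of 1650 (646 to 6070). For FARP1 and TES the other lines lay close together and far above HG3.

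DSG2, the desmosome cadherin desmoglein 2, had 1 count in HG3 and stood at 40.3 to 66.4 CPM elsewhere. DCBLD2, a neuropilin-like membrane protein, ACVR2A, a receptor for activins, and EYA1, a transcriptional coactivator, had no count in HG3 and were at least 255-fold, 143-fold and 146-fold lower. ZNF804A, GALNT18 and the histone gene H2BC26 also had no count in HG3. LYPD6B, TBC1D12, TMPRSS3 and RNF144A had 1 count each there and were at 12.7 CPM or more in the other 4 libraries.

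**Figure D2:**
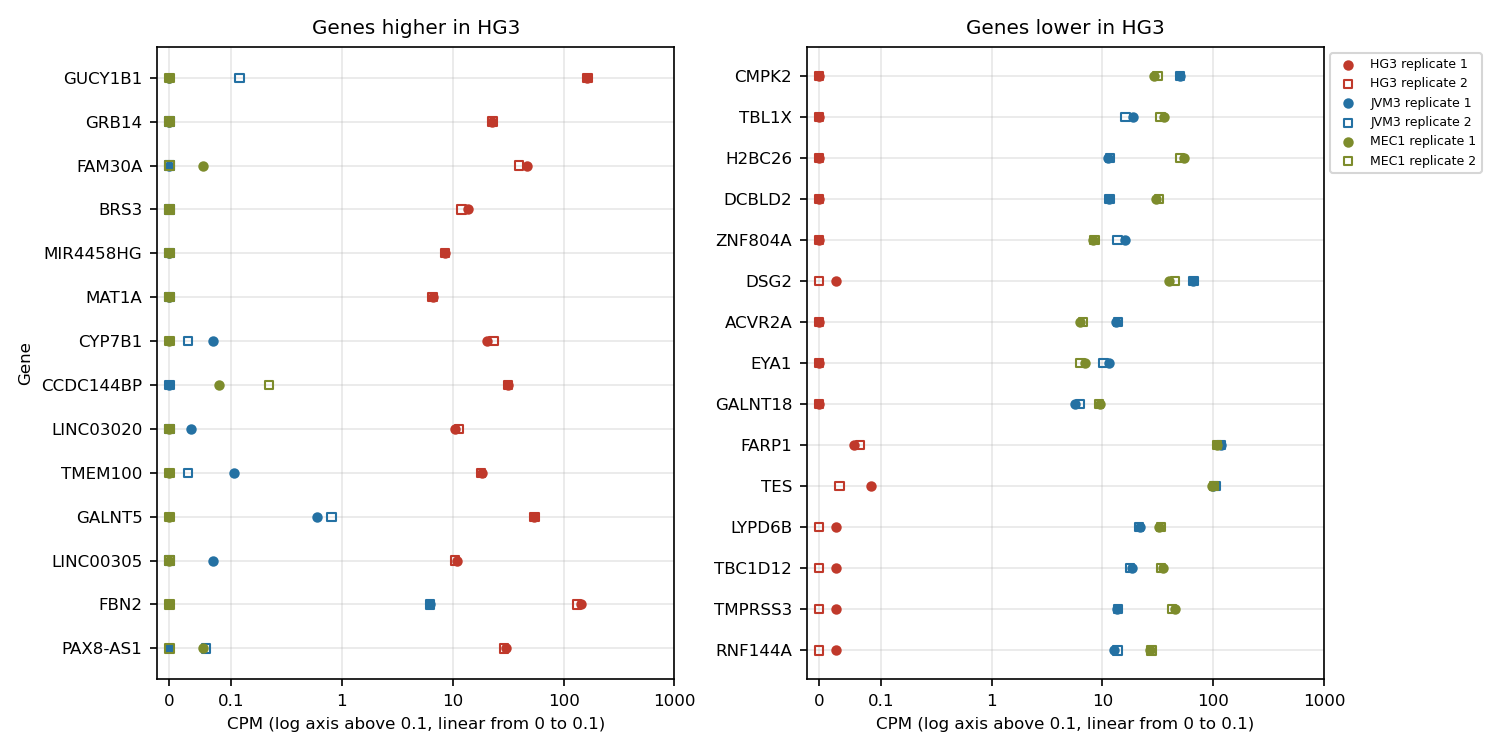
Level of genes among the 15 with the largest rise and the 15 with the largest fall in HG3, in CPM on an axis that is logarithmic above 0.1 and linear below, with 1 point per library. By the calling rule HG3 stands apart from the other 4 libraries for every gene shown. The other lines lie near each other for most of the lower genes.

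A stricter reading asked which genes were off in 1 set and on in the other. Outside chromosome Y, 28 of 19706 tested genes (0.142%) had no count in either HG3 library and at least 1 CPM in all other 4. Besides those above they included TOX, a high-mobility-group protein of lymphocytes, DLEU1, ADRB1, the beta-1 adrenergic receptor, FAM50B, BEND6 and MAGI3. The reverse, no count in the other 4 libraries and at least 1 CPM in both HG3 libraries, held for 22 genes (0.112%). Among these were AGTR2, the type 2 angiotensin receptor, at 3.22 and 3.44 CPM, TIMP3, a metalloproteinase inhibitor, at 1.43 and 1.26 CPM, and the zinc finger gene ZNF99.

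Markers of chronic lymphocytic leukaemia split in HG3. Of 24 tested, 4 were called higher (16.7%, against 5.38% of all tested genes) and 4 lower (16.7%, against 5.06%), and the list's median log2 difference was 0.61 against 0.02 for all tested genes. CD5, the surface glycoprotein used in diagnosis, stood at 42.2 and 41.0 CPM in HG3, 0.423 and 0.506 in JVM3 and 0.108 and 0.0946 in MEC1. That was 89.0-fold (61.8 to 133) above JVM3, with a log2 difference of 7.54 ± 0.12 (SE) and an edgeR adjusted p of 9.06e-46. ROR1, the orphan receptor for Wnt5a, stood at 16.7 and 17.2 CPM in HG3, 0.704 and 0.744 in JVM3 and 0.325 and 0.189 in MEC1, 23.3-fold (17.3 to 32.1) above JVM3. ZAP70, a kinase of T cell receptor signalling, stood at 26.2 and 25.2 CPM in HG3, 0 and 0.149 in JVM3 and 2.76 and 2.87 in MEC1, 9.16-fold (7.89 to 10.7) above MEC1. HG3 was the high line for all 3, as the calling rule requires. ZAP70 also belongs to T cells, whose defining genes CD3D, CD3E and CD3G had no count in HG3.

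FCER2 stood at 717 and 666 CPM in HG3, 341 and 324 in JVM3 and 187 and 183 in MEC1, 2.09-fold (2.06 to 2.13) above JVM3, and was not called, since the lower HG3 library was under 2 times the higher JVM3 library. The members that were lower were CRY1, a clock repressor, TCL1A, a coactivator of AKT, LEF1, the Wnt-responsive transcription factor, and WNT3. TCL1A stood at 0.0559 and 0.265 CPM in HG3, 7.82 and 7.02 in JVM3 and 6.87 and 7.16 in MEC1, 46.2-fold (24.9 to 97.0) below MEC1. LEF1 stood at 2.91 and 3.94 CPM in HG3, 25.4 and 28.9 in JVM3 and 12.5 and 13.1 in MEC1, 3.78-fold (3.26 to 4.40) below MEC1. CRY1 had 2 counts in HG3 and stood at 15.3 to 24.1 CPM elsewhere. CD38 and CD200 were not called. CD200 stood at 72.6 and 75.5 CPM in HG3, 101 and 102 in JVM3 and 4.57 and 5.30 in MEC1.

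The 13q14 host transcripts were missing from HG3. DLEU2, which hosts MIR15A and MIR16-1, had 1 count over both HG3 libraries and stood at 10.1 and 10.8 CPM in JVM3 and 8.98 and 9.30 in MEC1, a ratio of 603 (108 to 23800). DLEU1, the neighbouring non-coding gene, had no count in HG3 and stood at 5.53 and 5.03 CPM in JVM3 and 4.57 and 4.98 in MEC1, at least 105-fold lower. TRIM13, a ubiquitin ligase gene beside DLEU2, stood at 3.38 and 3.64 CPM in HG3, 31.0 and 32.9 in JVM3 and 9.15 and 9.81 in MEC1, 2.70-fold (2.32 to 3.15) below MEC1. HG3 was lowest for all 3, as the calling rule requires. These were 3 of 23 tested genes of the region called lower (13%, against 5.06% of all tested genes), with 0 higher and a median of -0.66. The edgeR test alone had 17 lower and 2 higher, against 30.1% and 35.2% of all tested genes. Genes on either side were transcribed. SPRYD7 stood at 7.33 and 8.30 CPM in HG3, 10 and 10.38 in JVM3 and 4.65 and 4.38 in MEC1. RB1, the retinoblastoma gene, stood at 68.0 and 72.0 CPM in HG3, 88.0 and 88.3 in JVM3 and 49.2 and 53.3 in MEC1. KPNA3, RNASEH2B and EBPL were not called either. Of the list's 32 genes in the table, 9 were too low to test, KCNRG and DLEU7 among them. DNA copy number was not measured in these files.

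The 2 mature microRNAs from the DLEU2 host are shown because their host transcript is the one that HG3 lacked. They come from RefSeq on GRCh38.p14, both on the minus strand of chromosome 13, miR-15a-5p at chr13:50049167-50049188 and miR-16-5p at chr13:50049027-50049048. Capitals mark the seed, bases 2 to 8, which both share.
hsa-miR-15a-5p: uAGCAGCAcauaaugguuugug
hsa-miR-16-5p: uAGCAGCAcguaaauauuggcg
Mature microRNAs were not measured in these libraries. The gene MIR16-1 had no count in HG3 and at most 1 count in any other library, so its level was not detectable in any line.

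Interferon response genes were lower in HG3 than in both other lines, or lay between them. Of 39 tested, 13 were called lower (33.3%, against 5.06% of all tested genes) and 0 higher, and the list's median was -0.93. By the test alone edgeR had 33 lower and 4 higher, against 30.1% and 35.2% of all tested genes. RSAD2, which encodes the antiviral enzyme viperin, stood at 0.0280 and 0.265 CPM in HG3, 17.2 and 18.2 in JVM3 and 17.0 and 17.1 in MEC1, 125-fold (65.6 to 274) below MEC1. IFI44L stood at 119 and 124 CPM in HG3, 715 and 717 in JVM3 and 638 and 704 in MEC1, 5.52-fold (5.39 to 5.66) below MEC1. IFITM3, a membrane protein that blocks virus entry, stood at 0.307 and 0.265 CPM in HG3, 9.12 and 9.43 in JVM3 and 3.03 and 2.62 in MEC1, 9.86-fold (6.15 to 16.7) below MEC1. IRF7, the transcription factor that drives interferon-alpha genes, stood at 42.1 and 37.4 CPM in HG3, 174 and 164 in JVM3 and 170 and 156 in MEC1, 4.09-fold (3.92 to 4.27) below MEC1. HG3 was the lowest line for each of these 4, as the calling rule requires. The others called were CMPK2, IFI27, IFITM1, IFITM2, HERC6, DDX60, EPSTI1, IFI44 and ISG20.

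Over the whole list, HG3 was not always the lowest line. JVM3 was the highest line for 38 of the 39 genes, HG3 the lowest for 20 and MEC1 for 19. MX1, a dynamin-like antiviral GTPase, stood at 552 and 536 CPM in HG3, 750 and 757 in JVM3 and 771 and 776 in MEC1. IFIT2, an RNA-binding antiviral protein, stood at 121 and 124 CPM in HG3, 411 and 416 in JVM3 and 19.3 and 19.7 in MEC1. HG3 was thus in the middle for IFIT2 and not at the bottom of every interferon gene.

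**Figure D3:**
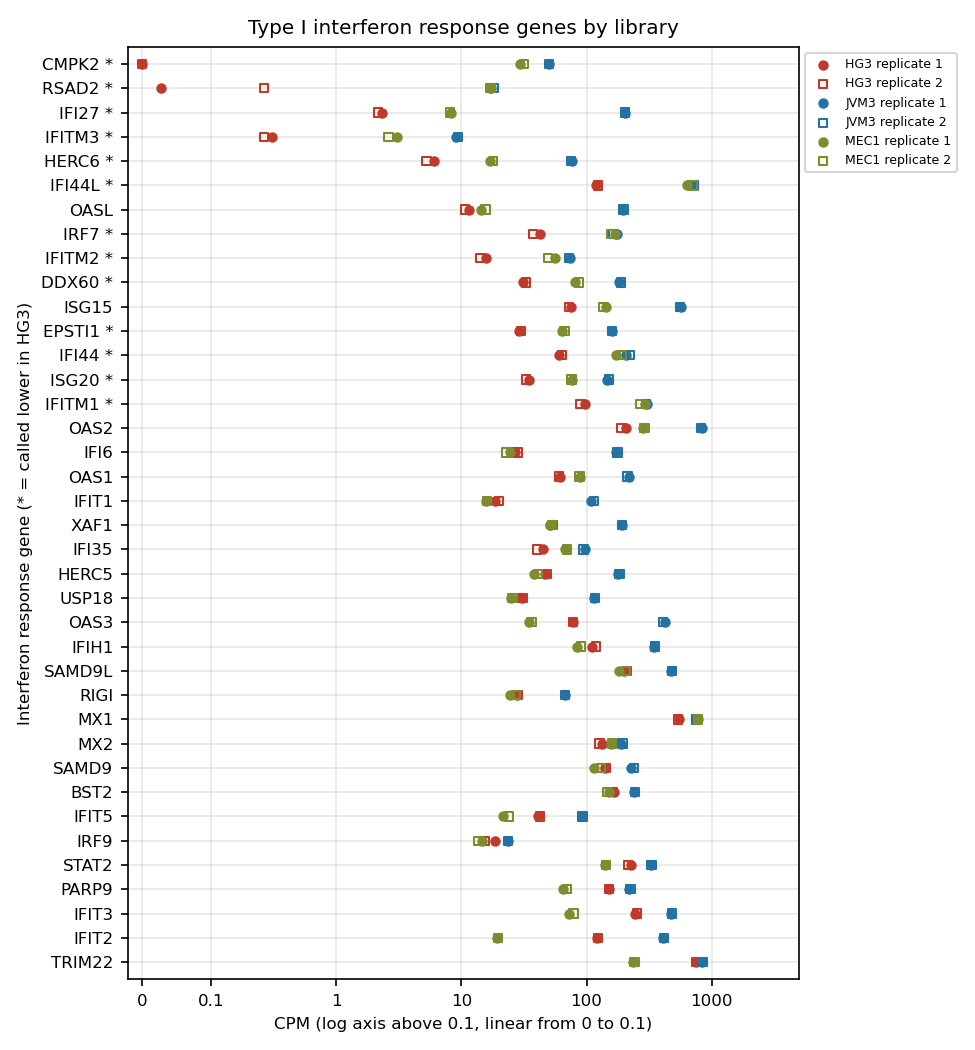
Level of type I interferon response genes in each wild-type library, in CPM on an axis that is logarithmic above 0.1 and linear below, ordered from the lowest to the highest HG3 level relative to the other lines. Asterisks mark the 13 genes called lower in HG3. Over all 39 genes of the list, HG3 lay below both other lines for 20 and above both for 0.

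Promoters of the called interferon genes were searched for GAAA followed after any bases NN by a second GAAA, the core of the interferon-stimulated response element, and for its reverse complement, in RefSeq windows of 300 bases (250 before and 50 after the gene start, GRCh38.p14). Overlapping matches counted once per gene. Of the 39 list genes, 30 had a window. The motif was found in 9 of the 11 called lower (81.8%) and in 12 of the 19 not called (63.2%), against 4.26% of 11922 tested genes and 3.57% of all 35116 windows. Windows of CMPK2 and HERC6 held no match. Of the called genes 4 are shown, each by 60 bases from the part of the window before the start, with the matches in capitals: RSAD2 at chr2:6877607-6877666, IFI44 at chr1:78649729-78649788 and IFI27 at chr14:94110616-94110675, all on the plus strand, and IFITM3 at chr11:320861-320920 on the minus strand. They are shown because all 4 genes were called lower in HG3 and hold a match. The last match before the start begins 145 bases from it in RSAD2, 18 in IFI44, 95 in IFI27 and 35 in IFITM3.
RSAD2: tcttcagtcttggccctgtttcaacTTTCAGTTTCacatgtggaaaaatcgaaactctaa
IFI44: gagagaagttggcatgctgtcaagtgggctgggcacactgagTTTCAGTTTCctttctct
IFI27: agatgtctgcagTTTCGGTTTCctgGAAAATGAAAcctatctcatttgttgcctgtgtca
IFITM3: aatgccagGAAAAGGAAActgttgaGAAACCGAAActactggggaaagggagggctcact
A match describes letters in the window and not a bound site. Among all genes called lower in HG3, 5.75% of 626 with a window held the motif.

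Of 19 MHC class II genes, which present peptides to helper T cells, 3 were called higher in HG3 (15.8%) and 3 lower (15.8%). The shares of all tested genes were 5.38% and 5.06%. The list's median was 0.86, and by the test alone 13 were higher and 6 lower, against 35.2% and 30.1%. HLA-DRA stood at 2457 and 2383 CPM in HG3, 727 and 733 in JVM3 and 1142 and 1136 in MEC1, 2.13-fold (2.11 to 2.14) above MEC1. HLA-DPB1 stood at 383 and 363 CPM in HG3, 118 and 113 in JVM3 and 145 and 136 in MEC1. HLA-DQB1 stood at 558 and 545 CPM in HG3, 49.3 and 49.8 in JVM3 and 213 and 209 in MEC1. CIITA, the master regulator of these genes, stood at 156 and 154 CPM in HG3, 55.1 and 53.1 in JVM3 and 92.6 and 91.3 in MEC1, 1.69-fold (1.64 to 1.74) above MEC1, and was not called. The 3 lower members were the little-expressed HLA-DQA2 and HLA-DQB2 and HLA-DOB, part of the DO modulator of peptide loading. HLA-DOB stood at 6.598 and 5.822 CPM in HG3, 52.7 and 53.9 in JVM3 and 26.33 and 25.01 in MEC1, 4.12-fold (3.70 to 4.6) below MEC1. HLA genes are variable and resemble each other, so how reads divided among them is uncertain. Of 21 tested MHC class I presentation genes edgeR with the distance rule called 0. By the test alone 4 were higher and 14 lower, against 35.2% and 30.1% of all tested genes.

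Of 23 tested B cell surface genes, 0 were called higher and 4 lower (17.4%, against 5.06% of all tested genes), with a median of -0.06. The edgeR test alone had 8 higher and 11 lower, against 35.2% and 30.1% of all tested genes. BANK1, an adaptor of B cell receptor signals, stood at 0.0280 and 0.0993 CPM in HG3, 18.1 and 17.2 in JVM3 and 80.6 and 84.0 in MEC1, 291-fold (113 to 1070) below JVM3. FCGR2B, the inhibitory Fc receptor, stood at 5.12 and 5.49 CPM in HG3, 23.8 and 24.1 in JVM3 and 26.6 and 25.3 in MEC1. TNFRSF13C, the BAFF receptor, stood at 8.05 and 9.13 CPM in HG3, 38.2 and 37.3 in JVM3 and 22.2 and 21.7 in MEC1. FCRLA, an intracellular Fc receptor-like protein, was 4.0-fold (3.78 to 4.22) below JVM3. HG3 was lowest for all 4, as the calling rule requires. In the Fc receptor list, 3 of 13 were called lower (23.1%, against 5.06% of all tested genes), FCGR2A besides FCGR2B and FCRLA. FCRL2, an Fc receptor-like gene, was the 1 of 13 called higher (7.69%, against 5.38%), at 9.84 and 11.3 CPM in HG3 and 0.0541 CPM or less elsewhere.

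B cell transcription factors gave 1 called higher (3.33%, against 5.38% of all tested genes) and 5 lower (16.7%, against 5.06%) of 30, with a median of -0.41. BCL11A, a zinc finger repressor, stood at 0 and 0.132 CPM in HG3, 14.9 and 14.2 in JVM3 and 9.23 and 9.11 in MEC1, 151-fold (58.8 to 557) below MEC1. BCL6, the germinal centre repressor, stood at 0.336 and 0.298 CPM in HG3 and 1.99 to 2.36 CPM elsewhere. ZEB2, LEF1 and IRF8 were the others that were lower. BACH2 was called higher at only 0.391 and 0.430 CPM. In the list for B cell receptor signalling, of 32 tested 1 was higher (3.12%) and 2 were lower (6.25%), against 5.38% and 5.06%. FGR, a Src-family kinase, stood at 169 and 151 CPM in HG3, 70.5 and 67.7 in JVM3 and 64.6 and 64.5 in MEC1. RASGRP2, an activator of the small GTPase RAP1, was 5.0-fold (4.34 to 5.78) below MEC1.

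Maturation lists showed few calls. TNFRSF17, which encodes the plasma cell receptor BCMA, stood at 97.2 and 99.5 CPM in HG3, 10.6 and 11.2 in JVM3 and 29.3 and 28.0 in MEC1, 3.42-fold (3.26 to 3.60) above MEC1. It was the 1 of 21 plasma cell genes called higher (4.76%, against 5.38% of all tested genes). CAV1 and FKBP11 were lower (9.52%, against 5.06% of all tested genes). Among 18 germinal centre genes 0 were higher and 2 lower (11.1%), TCL1A and BCL6. There edgeR alone had 4 higher and 9 lower, against 35.2% and 30.1% of all tested genes. The list of age-associated and memory B cell genes had 2 of 20 higher (10%, against 5.38%) and 2 lower (10%, against 5.06%).

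Of 36 adhesion genes tested, 3 were called higher (8.33%) and 2 lower (5.56%), near the 5.38% and 5.06% of all tested genes. ITGB1, the integrin beta-1 chain, stood at 68.6 and 73.7 CPM in HG3, 5.35 and 4.97 in JVM3 and 32.2 and 32.7 in MEC1. ITGA5, its fibronectin-binding alpha partner, stood at 11.8 and 11.7 CPM in HG3, 2.32 in both JVM3 libraries and 0.135 and 0.0946 in MEC1, 5.08-fold (4.24 to 6.11) above JVM3. HG3 was highest for both chains of the fibronectin receptor, as the calling rule requires. The tetraspanin CD9 was also higher, and CDH1, E-cadherin, lower by 2.56-fold (2.22 to 2.95) against JVM3.

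Of 35 cytokine and chemokine genes tested, 6 were called lower (17.1%, against 5.06% of all tested genes) and 3 higher (8.57%, against 5.38%). By the test alone 16 were lower and 13 higher, against 30.1% and 35.2% of all tested genes. XCL1, the chemokine lymphotactin, stood at 101 and 97.1 CPM in HG3, 1.51 and 1.40 in JVM3 and 2.30 and 2.08 in MEC1, 45.1-fold (38.3 to 53.3) above MEC1. TNFSF4, the ligand of OX40, stood at 402 CPM in both HG3 libraries, 117 and 116 in JVM3 and 7.63 and 7.76 in MEC1, 3.46-fold (3.38 to 3.56) above JVM3. LTA, lymphotoxin alpha, stood at 17.9 and 14.8 CPM in HG3, 281 and 278 in JVM3 and 51.0 and 43.8 in MEC1. LTB, its membrane partner, stood at 0.475 and 0.198 CPM in HG3, 2.536 and 2.499 in JVM3 and 36.3 and 31.9 in MEC1. Both lymphotoxins were lowest in HG3, as the calling rule requires. IL10 had no count in HG3 and stood at 0.564 to 19.8 CPM elsewhere, at least 16.7-fold lower. IL1B, TNFSF10 and IL32 were lower as well, and CCL28 higher. ICOS, a T cell costimulator that lies outside these lists and was chosen after its values were seen, stood at 35.7 and 36.4 CPM in HG3 and at 0.149 CPM or less in the other 4, 279-fold (141 to 647) above JVM3.

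Ligands, receptors and targets of Notch and Wnt signalling differed in HG3. Of 38 tested, 10 were lower (26.3%, against 5.06% of all tested genes) and 4 higher (10.5%, against 5.38%), with a median of -0.56. LRP6, the Wnt coreceptor, stood at 0.140 and 0.232 CPM in HG3, 48.8 and 46.8 in JVM3 and 22.4 and 18.5 in MEC1, 113-fold (64.6 to 220) below MEC1. HES1, a repressor induced by Notch, stood at 0.280 and 0.331 CPM in HG3, 12.8 and 12.0 in JVM3 and 9.90 and 10.5 in MEC1, 33.5-fold (21.6 to 55.3) below MEC1. WNT5A, the ligand of ROR1, stood at 0.140 and 0.0662 CPM in HG3, 9.30 and 10.7 in JVM3 and 1.27 and 1.58 in MEC1, 13.3-fold (6.22 to 34.0) below MEC1. HG3 thus had the highest ROR1 and the lowest WNT5A of the 3 lines, as the calling rule requires for called genes. NRARP, another Notch-induced gene, stood at 0.587 and 0.761 CPM in HG3 and 6.338 to 13.96 CPM elsewhere. HES4, NOTCH4, ROR2, WNT3, WNT6 and LEF1 were the others that were lower. SFRP1, HEY2 and WNT10A were higher beside ROR1.

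Genes activated by p53 had a median of 1.05, with 3 of 27 called higher (11.1%) and 1 lower (3.70%), against 5.38% and 5.06%. MEC1 was the lowest line for 25 of the 27. CDKN1A, the cell cycle inhibitor p21, stood at 695 and 662 CPM in HG3, 680 and 675 in JVM3 and 71.2 and 70.6 in MEC1, and HG3 and JVM3 overlapped. MDM2, the ubiquitin ligase for p53, stood at 987 and 1016 CPM in HG3, 1125 and 1136 in JVM3 and 178 and 190 in MEC1. FDXR, a mitochondrial reductase, stood at 233 and 212 CPM in HG3, 69.5 and 71.6 in JVM3 and 19.46 and 19.99 in MEC1, 3.16-fold (3.06 to 3.27) above JVM3. TP53I3, a quinone oxidoreductase, stood at 49.96 and 49.16 CPM in HG3, 12.0 and 13.9 in JVM3 and 3.17 and 3.31 in MEC1. BTG2, an antiproliferative gene, was 2.29-fold (2.23 to 2.35) above JVM3. FDXR, TP53I3 and BTG2 were highest in HG3, as the calling rule requires, whereas CDKN1A and MDM2 were not called. SPATA18, a mitochondrial quality gene, had no count in HG3 and was called lower, at 5.85 and 6.31 CPM in JVM3 and only 0.189 and 0.0631 in MEC1.

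Survival and proliferation genes gave few calls. Of 17 BCL2 family genes, BIK, a BH3-only killer, was the 1 called higher (5.88%, against 5.38% of all tested genes) and 0 were lower. The edgeR test alone had 10 higher and 4 lower, against 35.2% and 30.1% of all tested genes. BCL2 itself stood at 260 and 270 CPM in HG3, 547 and 557 in JVM3 and 226 and 236 in MEC1. BCL2L11, the BH3-only gene BIM, stood at 28.0 and 27.8 CPM in HG3 and 24.27 and 24.98 in MEC1 and had no count in JVM3. Of 39 cell cycle genes 2 were lower (5.13%, against 5.06%), CCND1, cyclin D1, and CDKN2A, the p16 gene, and 0 higher. There the edgeR test alone had 22 lower and 9 higher, against 30.1% and 35.2% of all tested genes. Of 45 driver genes of the leukaemia, 1 was called higher and 1 lower (2.22% each, against 5.38% and 5.06% of all tested genes). EGR2 was higher, at 23.15 and 22.03 CPM against 4.86 to 8.61 elsewhere, and SAMHD1 lower, at 17.2 and 17.5 CPM against 41.4 to 88.1.

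Developmental gene families held genes that were lower in HG3. Of 17 protocadherin cluster genes tested, 6 were lower (35.3%, against 5.06% of all tested genes) and 0 higher, and all 6 belonged to the gamma cluster. The edgeR test alone had 13 lower and 0 higher, against 30.1% and 35.2% of all tested genes. PCDHGC3 stood at 0.0280 and 0.0993 CPM in HG3, 10.6 and 10.9 in JVM3 and 2.84 and 2.55 in MEC1, 44.7-fold (17.2 to 166) below MEC1. The remaining 5 were at 1.25 CPM or less in every library, and gamma genes share their last exons, so the split between them is uncertain. Of 29 homeobox genes, 8 were lower (27.6%, against 5.06% of all tested genes) and HOXB2 higher (3.45%, against 5.38%). MEIS2, a partner of HOX proteins, stood at 5.45 and 5.92 CPM in HG3, 99.7 and 102 in JVM3 and 12.4 and 11.9 in MEC1, 2.15-fold (1.90 to 2.43) below MEC1. Of 21 cancer-testis genes MAGEA3 and PRAME were higher (9.52%, against 5.38% of all tested genes) and 0 were lower. JVM3 was the highest line for 16 of the 21 and HG3 for 4, and the list's median was -0.45. The list summed to 41.2 and 41.4 CPM in HG3, 292 and 296 in JVM3 and 16.5 and 15.6 in MEC1. The edgeR test alone had 9 higher and 1 lower, against 35.2% and 30.1% of all tested genes. MAGEA3, of the melanoma antigen family, stood at 9.003 and 8.204 CPM in HG3, 1.27 and 0.893 in JVM3 and 0 in MEC1. PHGDH, the first enzyme of serine synthesis, was chosen after its values were seen. It stood at 0.140 and 0.165 CPM in HG3, 88.8 and 89.0 in JVM3 and 155 and 145 in MEC1, 587-fold (319 to 1220) below JVM3.

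**Figure D4:**
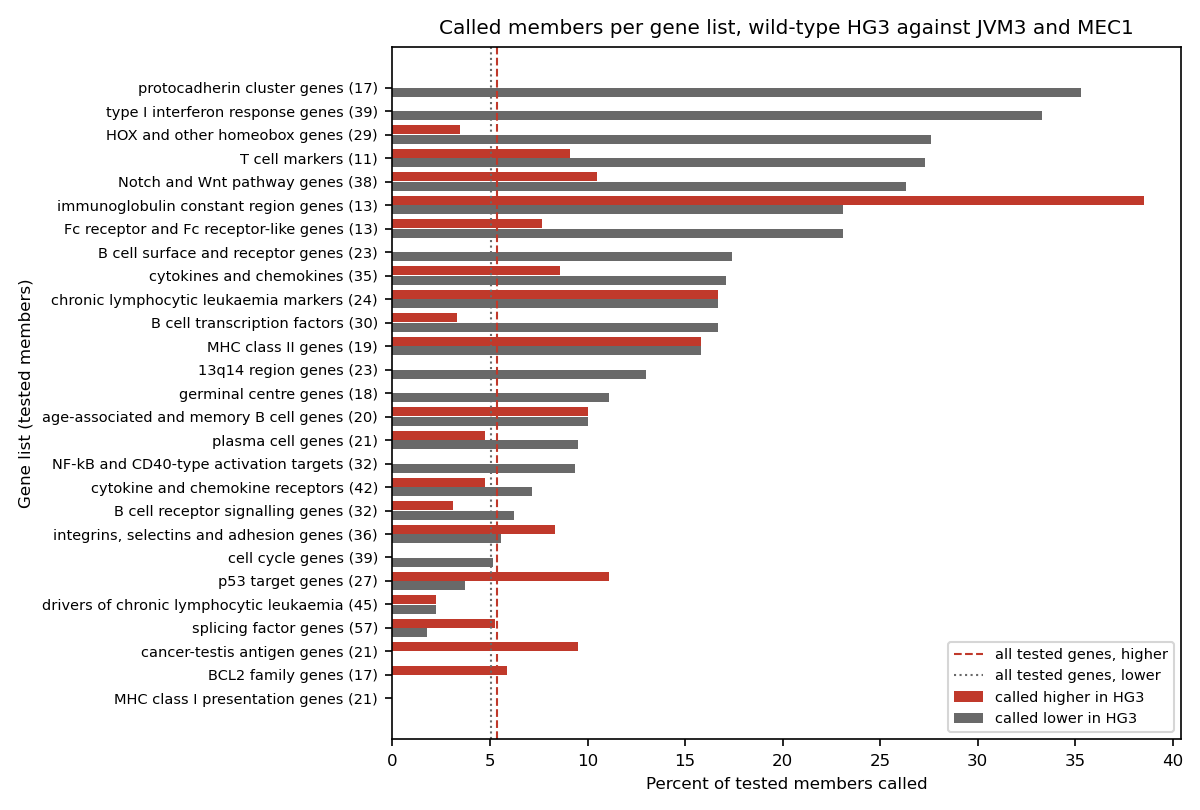
Percent of tested members of each gene list called higher (red) or lower (grey) in wild-type HG3, for lists with at least 10 tested members, whose numbers stand in brackets. Dashed and dotted lines give the shares over all tested genes, 5.38% higher and 5.06% lower. Protocadherin, interferon response, homeobox, T cell marker and Notch and Wnt genes have the longest bars for lower, and MHC class I has none.

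Splicing factor genes, the list nearest to the study's question, gave few calls. Of 57 tested, 3 were higher (5.26%, against 5.38% of all tested genes) and 1 lower (1.75%, against 5.06%), with a median of -0.09. The 4 were tissue-restricted RNA-binding genes. RBFOX1, a neuronal and muscle splicing regulator, stood at 3.77 and 4.24 CPM in HG3 and at 0.0893 CPM or less elsewhere. KHDRBS3 stood at 0 and 0.132 CPM in HG3, 49.8 and 51.0 in JVM3 and 3.79 and 3.72 in MEC1, 62.0-fold (23.9 to 229) below MEC1. KHDRBS2 and ELAVL2 were higher at 1.26 to 1.65 CPM.

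Splice junctions were compared as the share of reads entering the same acceptor. The wild-type columns held 16659496 reads in HG3, 15537369 in JVM3 and 15976355 in MEC1, with no replicates and hence no test. Of 70797 junctions at acceptors with at least 20 reads in each column, 95 (0.134%) were used at least 20 points more in HG3 than in both other lines with separate Wilson intervals, and 87 (0.123%) at least 20 points less. Shares at an acceptor sum to a whole, so a junction used more often has a partner at the same acceptor used less. The counts for more and less are therefore not independent. The same rule gave 113 and 108 junctions for JVM3 and 246 and 235 for MEC1. Of the 95 and 87, 82 and 76 lay in clusters matched to a gene, and 16 and 12 of those were absent from the annotation used, against 37.4% of matched junctions compared. Coordinates below are hg19.

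RPL23, a ribosomal protein gene on chromosome 17, used the donor at 37009300 for the acceptor at 37008953 in 100% of 612 reads in HG3 (99.4 to 100%), against 34.4% of 1016 in JVM3 and 20.8% of 2312 in MEC1. The neighbouring donor at 37009275 had no read in HG3. DIDO1, a chromatin regulator on chromosome 20, used the donor at 61557791 in 56.0% of 150 reads in HG3 (48.0 to 63.7%), against 0% of 114 in JVM3 and 0.885% of 226 in MEC1. The donor at 61557784, which like the other is annotated, had 0% in HG3, 72.8% in JVM3 and 52.2% in MEC1. FLT1, a VEGF receptor gene on chromosome 13, joined 29003995 to 29002058 in 71.9% of 32 reads in HG3 (54.6 to 84.4%), against 12.3% of 73 in JVM3 and 4.90% of 143 in MEC1. These junctions were named for their large gap, so a donor that HG3 preferred follows from the choice. For FLT1 it rests on 32 reads in HG3. Both RPL23 junctions and the FLT1 junction from 29003995 were absent from the annotation used.

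SRP9, of the signal recognition particle, joined 225971070 to 225976961 on chromosome 1 in 100% of 27 reads in HG3, against 35.7% of 70 in JVM3 and 31.9% of 69 in MEC1. This SRP9 junction was absent from the annotation used. LINC00996, a non-coding gene on chromosome 7, used its annotated junction from 150130917 to 150139637 in 8.72% of 149 reads in HG3, against 63.6% of 66 in JVM3 and 85.5% of 117 in MEC1. The remaining named junctions lay outside matched genes or among HLA genes. A pair on chromosome 22 that ran to 29695679 from 29695636 (85.2% of 108 reads in HG3 and 0% in the others) or from 29695606 matched no gene. A pair on the plus strand of chromosome 6 ending at 31324014 lay among HLA genes, which resemble each other, and is uncertain.

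Immune genes were among those called, and the following were chosen after their values were seen. IFI44L joined 79094078 to 79094636 on chromosome 1 in 22.1% of 267 reads in HG3, 72.7% of 1490 in JVM3 and 99.3% of 1684 in MEC1. The longer junction from 79086256, which enters the same acceptor, took 72.3% in HG3, 22.1% in JVM3 and 0.594% in MEC1, so IFI44L was among both the genes called lower and the junctions. PTPRC, which encodes CD45, joined 198668833 to 198672427 on chromosome 1 in 60.5% of 425 reads in HG3, 40.0% of 610 in JVM3 and 0% of 627 in MEC1. FCER2 joined 7764263 to 7763740 on chromosome 19 in 46.9% of 4124 reads in HG3, 15.4% of 1897 in JVM3 and 19.4% of 1247 in MEC1. CD46, a complement regulator, used the junction from 207940540 to 207943666 on chromosome 1 in 60.5% of 430 reads in HG3, 19.1% of 632 in JVM3 and 7.95% of 541 in MEC1. IKZF1, the lymphoid factor Ikaros, used the junction from 50348502 to 50358644 on chromosome 7 in 46.4% of 194 reads in HG3, 18.7% of 219 in JVM3 and 24.6% of 285 in MEC1. HG3 was the high line for each of the last 4, as the rule for called junctions requires.

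**Figure D5:**
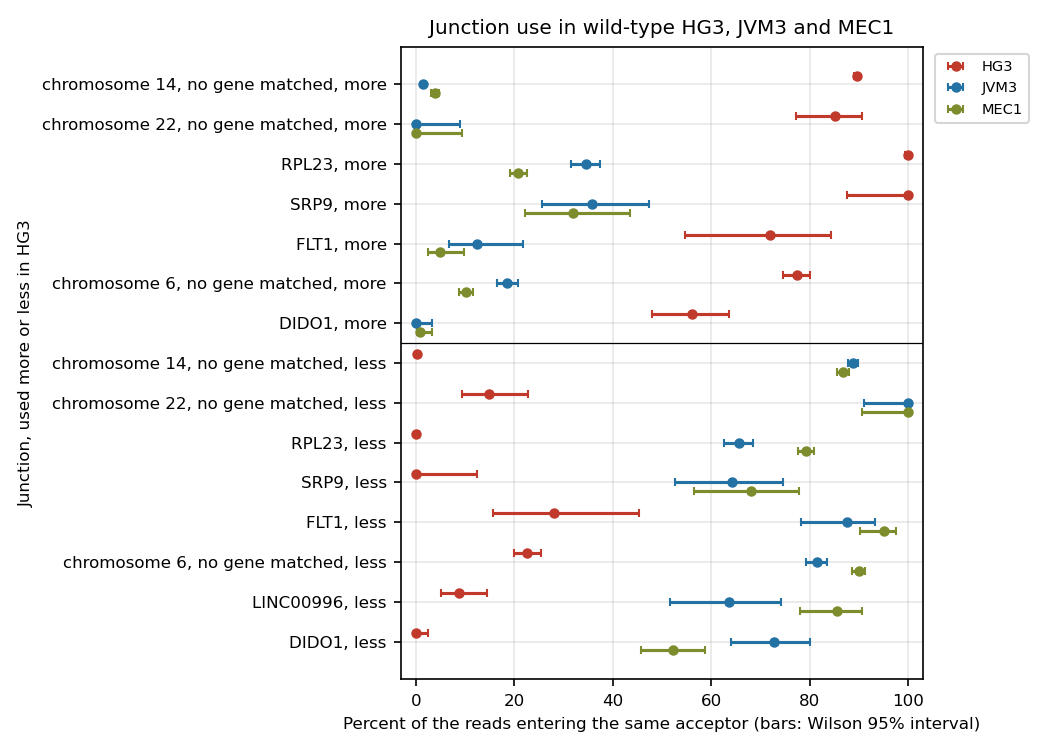
Share of the reads entering the same acceptor for the named junctions, in percent with Wilson 95% intervals, in the wild-type columns of HG3, JVM3 and MEC1. Those above the line were used more in HG3 and those below it less, and the HG3 point stands at least 52.2 points away from both other lines in each. Several acceptors appear on both sides of the line, since shares at an acceptor sum to a whole.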

How the data were processed

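The authors deposited unnormalized counts for 57820 genes, and the name table matched 39538 of them to a symbol. RNA was isolated by the Trizol method and libraries were ribodepleted and stranded, per the labels' protocols. The tools named in the submitters' processing notes are STAR 2.5.4b and HTSeq 0.9.1, and the build is hg19 (GRCh37). The counting's strand setting and its gene annotation are stated in none of these sources, so overlapping and antisense genes are uncertain. Entries naming no gene stayed out of library sizes: reads outside features were 17.7% to 23.4% and reads not uniquely aligned 29.0% to 33.8% of a library's entries. Between the 2 replicates of a line the chi-square averaged 2.39 to 4.12 a gene, above the sampling noise, and all 6 libraries were kept.

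Only the 6 wild-type libraries were fitted, as 3 groups, with edgeR 4.0.16 (TMM, filterByExpr, robust quasi-likelihood F-test) in R 4.3.3, and p-values were adjusted by Benjamini-Hochberg over all 19740 tested genes. The fit was also run on simulated counts in which most genes did not differ between lines, unlike these data, so that run supports no call here. The SE of a log2 difference was taken from the F statistic. CPM used TMM-scaled library sizes. Fitted log2 differences were printed only where every line had more than 3 counts. A fold was given against the nearer other line, with a count of 0 replaced by a floor of 3 counts over the line. A list's median is that of log2 ratios of summed counts with the same floor. Labels give the lines the same replicate numbers. Deviations of same-numbered libraries from their line's mean correlated at 0.177, 0.344 and 0.245 over 9640 genes, so the numbers were taken to pair the libraries, and the fit with the replicate as a block was an alternative.

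The junction file holds raw counts per junction, deposited by the authors, with 1 column per line and U1 status and no replicate number. The caller that made it is stated in none of the sources. Shares carry 95% Wilson intervals (statsmodels 0.14.6), which cover counting error only. No annotation of hg19 was used: clusters were matched by intron lengths to GENCODE release 29 genes (at least 3 introns, 2 times the next best), which gave 38164 of 43534 clusters (87.7%) and 0 when offered a wrong chromosome. J segments were named by their spacing alone.

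The libraries and gene lists were chosen with earlier results of these data known, so no list is independent evidence. Genes were named by a rule: the 15 with the largest change in each direction at 5 CPM or more (immunoglobulin, T cell receptor, Y-linked, XIST and mitochondrial genes left out), up to 4 called members per list and direction, and the B cell markers. Junctions were the 8 with the largest gap in each direction. Further genes were added where the text gives the lines' order in a list. Some genes the rule names are not reported here. Alternatives were another scaling, DESeq2 1.42.0, no filter, the block, each library left out, each other line alone, other distances and other junction rules.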

Additional observations from a re-analysis of the deposited data

How the results depend on the processing

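The distance rule set the size of the gene counts. With 4 times in place of 2 times, 582 genes were higher and 599 lower, and with the test against each line on its own and no distance, 3336 and 2869. Against JVM3 alone 2011 were higher and 2711 lower, and against MEC1 alone 3003 and 2348. Junctions used more numbered 61 with at least 50 acceptor reads, and with 30 points 37 were used more and 34 less. CD40 turned direction, at 1.05 (log2) against MEC1 alone and -1.16 against JVM3 alone, beside -0.06 against the mean of both. Leaving out each library in turn gave 1186 to 1242 genes higher, 1116 to 1315 lower and 11758 to 12805 by the test alone. With the replicate block, which pairs the libraries, 1062 were higher, 999 lower and all 2061 calls remained, so it changed no call, and the test alone gave 13244. DESeq2 gave 1052 and 992, and 2044 of the 2061 calls remained. All 128 named calls held under the scaling, tool, filter, block and left-out-library alternatives. Against JVM3 alone 2 were lost and against MEC1 alone 6, because the filter on low counts left those genes untested there. CR2 (-1.32) was lower against MEC1 alone. The cause of the other changes was not tested. Each line is 1 line, so line and any handling particular to it cannot be told apart.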

Other observations

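Genes called in the same direction also stood side by side on the chromosome. In the order of tested protein-coding genes, 14 runs of at least 3 neighbours were all higher in HG3 and 16 were all lower, and the longest held 5 and 6 genes. These runs were picked after the values were seen, and whether they exceed what gene order alone would give was not tested. The longest run of higher genes was a zinc finger cluster on chromosome 19, ZNF729, ZNF98, ZNF492, ZNF99 and ZNF723. ZNF723 stood at 6.71 and 6.95 CPM in HG3, 0.211 and 0.208 in JVM3 and 0 in MEC1, 32.5-fold (18.8 to 61.6) above JVM3. Such zinc finger genes resemble each other, so the split between them is uncertain. On the same chromosome the kallikrein genes KLK1, KLK3, KLK2 and KLK4, which encode secreted serine proteases, were all higher. KLK1, a kininogenase, stood at 6.74 and 6.09 CPM in HG3, 1.41 and 1.70 in JVM3 and 1.19 and 1.29 in MEC1. KLK2 stood at 5.17 and 4.47 CPM in HG3, 1.23 and 1.64 in JVM3 and 0.0812 and 0.0946 in MEC1. KLK3, which encodes prostate-specific antigen, stood at 0.755 and 0.529 CPM in HG3 and at 0.0315 CPM or less elsewhere. HG3 was the highest line for all 4, as the calling rule requires.

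The longest run of lower genes lay on chromosome 17 and included ENPP7, CBX2, CBX8, TBC1D16 and CCDC40. CBX2 and CBX8 encode chromodomain subunits of Polycomb repressive complexes. CBX2 stood at 0.615 and 0.463 CPM in HG3, 12.3 and 14.3 in JVM3 and 7.36 and 7.06 in MEC1, 13.2-fold (9.43 to 19.1) below MEC1. CBX8 stood at 3.77 and 3.34 CPM in HG3, 9.97 and 10.7 in JVM3 and 8.04 and 8.29 in MEC1, 2.28-fold (1.96 to 2.67) below MEC1. CBX7, another member of that family, was not called. A run on chromosome 2 held COLEC11, CMPK2, RSAD2 and RNF144A. The 2 interferon response genes furthest below the other lines were thus neighbours in this order of tested genes. COLEC11 had only 1 and 2 counts in HG3 and 8 to 12 in the other libraries. Distance between genes was not taken into account. In the MHC region, LTB, LST1, NCR3 and AIF1 were lower together, with LST1 at 0.224 and 0.265 CPM in HG3, 10.5 and 9.91 in JVM3 and 2.463 and 2.996 in MEC1.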
